A study of Mus musculus with 4 samples.

Results

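Chemokines and interleukin-6 are secreted signals that chondrocytes, the cells of cartilage, release when they respond to injury or inflammation. The genes Cxcl1, Cxcl2, Cxcl5, Cxcl12, Cxcl14, Ccl2, Ccl5, Ccl7, Ccl20 and Il6 were chosen by symbol from a table of RNA-seq counts, and all 10 were among its 25239 gene symbols. The libraries came from primary mouse chondrocytes of Tiki2 fl/fl mice (control, n = 2) and of Tiki2 fl/fl mice that also carry an inducible Cre driven by Col2a1 (cKO, n = 2; written Col2a1-Cre/ERT in the titles and Col2a-CreERT2 in the genotype field). All 4 libraries came from cells treated with 4-hydroxytamoxifen, which activates this Cre, and both groups carry the floxed alleles. The Cre is present in the cKO libraries alone, so loss of Tiki2 and the Cre itself cannot be told apart. The study asks how these cells change without Tiki2 (symbol Trabd2b), a protease of the cell membrane that inactivates Wnt proteins. Strain, sex, age and whether a library holds 1 animal or a pool are not given in the sources at hand. P-values here therefore measure only how far these samples spread. In cKO that spread may be technical variation. The controls differ in sex by their counts, given below, and so come from different animals.

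Chemokines bind to matrix glycosaminoglycans and guide leukocytes through G-protein-coupled receptors. Cxcl1, Cxcl2 and Cxcl5 attract neutrophils through Cxcr2, Ccl2 and Ccl7 attract monocytes through Ccr2, Ccl5 attracts T cells and monocytes, and Ccl20 attracts cells that carry Ccr6. Cxcl12, the ligand of Cxcr4, and Cxcl14 are made constitutively by stromal cells, whereas Cxcl1, Cxcl2, Ccl20 and Il6 are classical early targets of NF-kB, the transcription factor that interleukin-1 and tumour necrosis factor activate. In joints, chondrocytes and synovial cells make these factors in arthritis.

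The stretches of promoter below are shown because the inducible Cxcl1, Cxcl2, Ccl20 and Il6 differ in them from the constitutive Cxcl12 and Cxcl14. RefSeq promoters on GRCm38.p6, from 250 bases before to 50 bases after the start of transcription, were at hand for 6 of the 10 genes. None is printed for Cxcl5, Ccl2, Ccl5 and Ccl7, so the contrast does not cover these genes. Each line gives bases 120 to 31 before the start, and capitals mark matches to the NF-kB consensus on either strand.
Cxcl1, chr5:90891125-90891214, plus strand: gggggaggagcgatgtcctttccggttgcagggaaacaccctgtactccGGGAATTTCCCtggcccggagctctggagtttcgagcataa
Cxcl2, chr5:90903779-90903868, plus strand: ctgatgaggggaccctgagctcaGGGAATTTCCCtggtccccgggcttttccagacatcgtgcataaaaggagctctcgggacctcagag
Ccl20, chr1:83116646-83116735, plus strand: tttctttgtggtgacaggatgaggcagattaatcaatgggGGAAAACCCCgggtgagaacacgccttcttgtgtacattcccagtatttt
Il6, chr5:30012994-30013083, plus strand: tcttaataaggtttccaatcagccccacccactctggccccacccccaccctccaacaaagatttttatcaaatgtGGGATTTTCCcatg
Cxcl12, chr6:117168415-117168504, plus strand: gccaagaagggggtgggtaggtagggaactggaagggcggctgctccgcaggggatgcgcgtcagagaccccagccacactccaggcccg
Cxcl14, chr13:56296582-56296671, minus strand: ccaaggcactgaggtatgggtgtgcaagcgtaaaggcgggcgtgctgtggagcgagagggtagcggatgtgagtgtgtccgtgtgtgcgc

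Over the whole windows, Cxcl1 and Cxcl2 each had 2 matches to the NF-kB consensus, which overlap on opposite strands, and Ccl20 and Il6 had 1 each. Cxcl12 and Cxcl14 had none. Of 32851 RefSeq promoters of the same length, 4.51% held at least 1 match. The match GGGAATTTCC occurred in both Cxcl1, 71 bases before the start, and Cxcl2, 97 bases before it. The Il6 window also held 1 match to an AP-1 motif (TGANTCA, in 7.81% of promoters) and 1 to a C/EBP motif (TTGCNNAA, in 10.8%). The Cxcl12 window held 1 match to a TCF/LEF motif (CTTTGAT, in 3.73%), the class of factor through which β-catenin acts. The TATA box letters TATAAA, searched on the sense strand alone and found in 8.32% of promoters, were in none of the 6 windows. A match is a string of letters and not a shown binding site.

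Total counts ranged from 66750140 to 78873054 per library. Trabd2b was still expressed in cKO, at 436 and 415 CPM in the controls against 292 and 363 CPM in cKO (edgeR adjusted p = 0.15, DESeq2 adjusted p = 0.0082). Which exons the floxed alleles flank was not stated, so this level is a limited check of the deletion. CPM are counts scaled to a common library size by TMM factors, and values are given in the order replicate 1, replicate 2 throughout. Control replicate 1 stood apart from the other libraries by 112185 counts of Xist, the RNA of the inactive X chromosome, and 0 of the Y-linked Ddx3y, against 36 to 171 and 11073 to 12085 elsewhere. That library is therefore the only one from female cells, and within the control group sex and any other difference between the 2 libraries cannot be told apart. The 8 chondrocyte markers summed to 26391 and 31092 CPM in the controls against 15250.0 and 11288 CPM in cKO, so the labelled cell type was present in each library. Of these 8, edgeR called 7 lower, against 0.908% of all genes. The 11 macrophage markers summed to 20.1 to 27.2 CPM in the 4 libraries, with C1qb at 0 throughout, Adgre1 at 0 in 3 libraries and Ptprc at 0 in all but control replicate 1 (16 counts). Others of that list had counts in every library, with Cd68 at 626 to 820 and Cd14 at 547 to 746. Lyz2 had 120 to 249 counts, Mrc1 107 to 222 and Csf1r 39 to 125. In CPM the groups overlapped for Cd68, Cd14, Lyz2 and Csf1r, while Mrc1 was higher in both cKO libraries than in either control. No macrophage marker was called by edgeR, and the sums of the list overlapped between the groups. The 7 T and B cell markers summed to 0.219 to 0.489 CPM, with 5 at 0 throughout. The 8 adipocyte markers summed to 206 and 209 CPM in the controls against 302 and 485 CPM in cKO, the 8 fibroblast markers to 8009 and 7552 CPM and to 9071 and 9641 CPM. Of the fibroblast markers, 7 had a fold change above 0 and edgeR called 2 higher (0.393% of all genes). Dcn went the other way, at 1761 and 1720 CPM in the controls against 1467 and 1472 CPM in cKO. No adipocyte marker was called. The part of these shifts in the results below was not tested, and in bulk RNA fewer cells of a type and less RNA per cell cannot be told apart.

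None of the 10 genes passed the edgeR quasi-likelihood test at a Benjamini-Hochberg adjusted p of 0.05 over the 15522 genes tested, where 1.30% of genes were called (0.393% higher and 0.908% lower in cKO). All 10 passed the filter on low counts. At an unadjusted edgeR p under 0.05 there were 7 of the 10, against 17.2% of all genes. DESeq2 called 4, against 7.40% of all genes. Of these Cxcl14 and Ccl2 were higher (3.29% of all genes) and Cxcl1 and Ccl20 lower (4.11%). The 2 groups did not overlap for 7 genes: both cKO libraries were above both controls for Cxcl5, Cxcl12, Cxcl14 and Ccl2, and below both for Cxcl1, Cxcl2 and Ccl20. Groups did not overlap for 49.8% of all genes, 24.9% in each direction. The 10 genes and the lists below were chosen with earlier results of these data known. Their counts set against these shares therefore cannot show an excess. The median log2 fold change of the 10 was 0.06, beside 0.00214 over all genes, and it hides log2 fold changes that ran from -1.59 for Cxcl2 to 0.68 for Cxcl12.

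**Figure D1:**
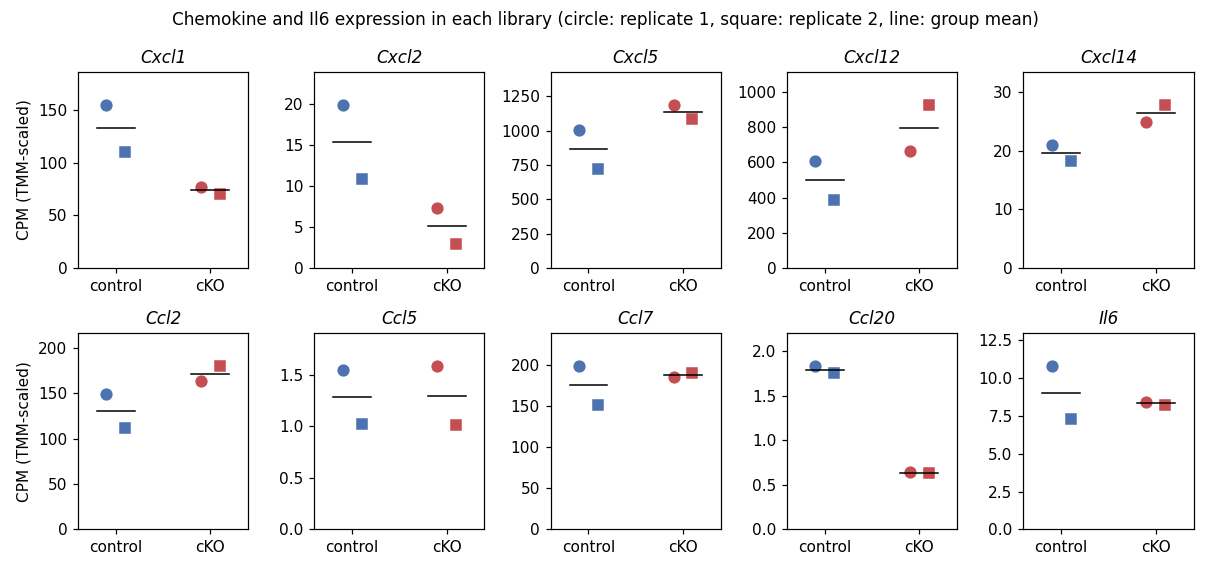
Expression of the 10 genes in CPM (vertical axes from 0) in each of 2 control and 2 cKO libraries, with circles for replicate 1, squares for replicate 2 and lines for group means. Both cKO points lie below both control points for Cxcl1, Cxcl2 and Ccl20, and above them for Cxcl5, Cxcl12, Cxcl14 and Ccl2.

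The 3 neutrophil-attracting genes lie on chromosome 5, and edgeR called none of them. In cKO, levels of Cxcl1 and Cxcl2 were below both controls and levels of Cxcl5 above both. Cxcl1 (ENSMUSG00000029380.11, mm10 chromosome 5, 90891241 to 90893115, plus strand) was at 155 and 111 CPM in the controls against 77.1 and 70.2 CPM in cKO. Both cKO libraries were close to each other and below both controls, with the nearest pair of libraries 1.44-fold apart, while the controls differed 1.40-fold. Group means were 133 ± 31.5 and 73.7 ± 4.83 CPM (SD, n = 2 each). The log2 fold change of Cxcl1 was -0.85 ± 0.15 (SE; 95% interval -1.22 to -0.48), with an edgeR adjusted p of 0.0642 and a DESeq2 adjusted p of 1.4e-06. It lay between -1.07 and -0.59 when each library was left out in turn, and edgeR called it without control replicate 2 (adjusted p = 0.0433) and without cKO replicate 1 (adjusted p = 0.0375).

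Cxcl2 (chromosome 5, 90903871 to 90905938, plus strand), the nearest relative of Cxcl1 in the set, had the lowest fold change and the widest spread. It was at 19.9 and 10.9 CPM in the controls against 7.31 and 2.94 CPM in cKO. Both cKO libraries were again below both controls, but the libraries within a group differed up to 2.49-fold. The log2 fold change of Cxcl2 was -1.59 ± 0.46 (SE; 95% interval -2.71 to -0.46; edgeR adjusted p = 0.16, DESeq2 adjusted p = 0.23). Without cKO replicate 1 it was -2.39 (edgeR adjusted p = 0.0168) whereas it was -1.08 without control replicate 1 (edgeR adjusted p = 0.44) and -1.07 without cKO replicate 2 (edgeR adjusted p = 0.27). Of the 50-base words in Cxcl2 transcripts, 5.84% also occur in Cxcl3, which can therefore share its reads. Cxcl3 alone was at 12.3 and 10.8 CPM in the controls against 15.1 and 11.8 CPM in cKO. Cxcl2 and Cxcl3 together gave 32.2 and 21.6 CPM in the controls against 22.4 and 14.8 CPM in cKO, and these sums overlapped between the groups. The sums also hold Cxcl3's own expression, and the part of shared reads in either gene was not tested.

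Cxcl5 (chromosome 5, 90759360 to 90761624, plus strand), which attracts neutrophils through the same receptor, lay on the other side of zero. Cxcl5 had 1007 and 721 CPM in the controls against 1189.9 and 1082 CPM in cKO. The cKO libraries were above both controls, though the nearest pair was only 1.08-fold apart and the controls differed 1.40-fold. In the fit its log2 fold change was 0.40 ± 0.15 (SE; 95% interval 0.03 to 0.76), with an edgeR adjusted p of 0.26 and a DESeq2 adjusted p of 0.47. It was 0.66 without control replicate 1 and 0.17 without control replicate 2.

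Ratios of raw counts within a library use no scaling between libraries, and the pairs given here were picked after their values were seen. Cxcl5 had 6.49 and 6.52 counts per count of Cxcl1 in the controls and 15.4 in each cKO library. The 2 controls, whose levels of both genes differed 1.40-fold, thus had nearly the same ratio. Ccl2 had 0.961 and 1.01 counts per Cxcl1 count in controls and 2.12 and 2.56 in cKO. The ratio of Cxcl12 to Cxcl1 was 3.93 and 3.49 in controls and 8.59 and 13.2 in cKO, and that of Cxcl1 to Il6 was 14.4 and 15.2 against 9.17 and 8.53. In each of these ratios the groups were further apart than the libraries within a group, and all share Cxcl1. In cKO, Cxcl5, Ccl2 and Cxcl12 lay above both controls and Cxcl1 below both. Their ratios to Cxcl1 therefore had to separate the groups and restate the results of the single genes. Pairs without Cxcl1 went both ways. The ratio of Cxcl5 to Il6 was 93.2 and 99.4 in controls and 142 and 131 in cKO. That of Ccl2 to Ccl20 was 81.2 and 64.0 against 253 and 287. In cKO, Ccl2 lay above both controls and Ccl20 below both, so this ratio also had to separate the groups. The groups overlapped for Cxcl5 to Cxcl12, at 1.65 and 1.87 in controls and 1.80 and 1.17 in cKO. They also overlapped for Cxcl12 to Cxcl14, at 29.0 and 21.2 against 26.6 and 33.2. An exact permutation test of 2 against 2 libraries cannot give a two-sided p below 0.333, so none was run.

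**Figure D2:**
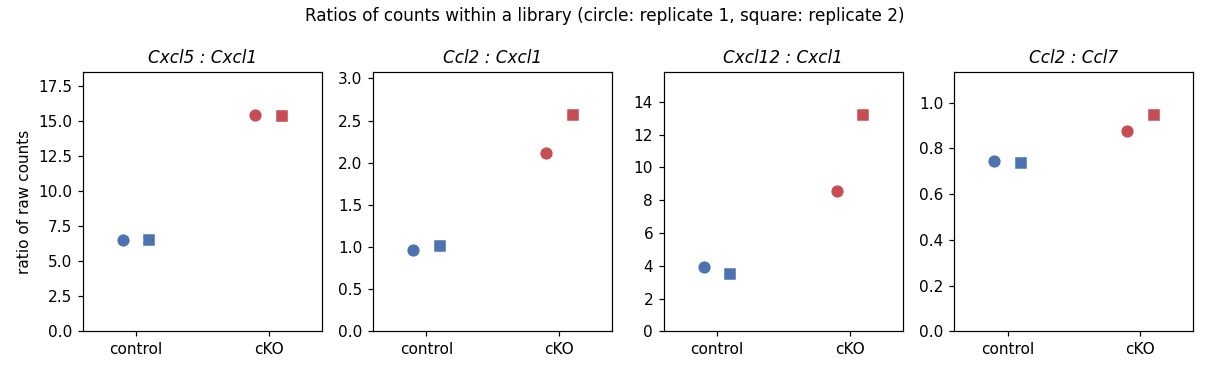
Ratios of raw counts of gene pairs within each library (vertical axes from 0), with circles for replicate 1 and squares for replicate 2. Cxcl5 to Cxcl1 is at 6.49 and 6.52 in controls and 15.4 in both cKO libraries.

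Cxcl12, which retains progenitor and immune cells in stromal niches, and Cxcl14, a chemokine of epithelia and stroma, were both higher in each cKO library than in either control. Cxcl12 (chromosome 6, 117168535 to 117181367, plus strand) was at 609 and 386 CPM in the controls against 662 and 927 CPM in cKO. The nearest pair of libraries, control replicate 1 and cKO replicate 1, was 1.09-fold apart, less than the 1.58-fold between the controls. Its log2 fold change was 0.68 ± 0.24 (SE; 95% interval 0.10 to 1.25; edgeR adjusted p = 0.22, DESeq2 adjusted p = 0.43). It was 1.04 without control replicate 1 and 0.38 without control replicate 2.

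Cxcl14 (chromosome 13, 56288643 to 56296551, minus strand) varied less, at 21.0 and 18.2 CPM in the controls against 24.9 and 27.9 CPM in cKO. Its replicates lay within 1.15-fold of each other and its groups were 1.19-fold apart at the nearest pair. Its fold change on the log2 scale was 0.43 ± 0.11 (SE; 95% interval 0.16 to 0.70), with an edgeR adjusted p of 0.13 and a DESeq2 adjusted p of 0.0360. The fold change stayed between 0.33 and 0.53 on the log2 scale when single libraries were left out, and edgeR called it in none of these fits.

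The monocyte attractants Ccl2 and Ccl7 are neighbours on chromosome 11 (82035571 to 82037453 and 82045712 to 82047525, both on the plus strand). Ccl2 was at 149 and 112 CPM in the controls against 163 and 180.2 CPM in cKO. Ccl7 was at 199 and 152 CPM in the controls against 186 and 190.5 CPM in cKO, so for Ccl7 control replicate 1 was the highest library and the groups overlapped. The log2 fold change was 0.40 ± 0.13 (SE) for Ccl2 (95% interval 0.07 to 0.72; edgeR adjusted p = 0.21, DESeq2 adjusted p = 0.0401). For Ccl7 it was 0.10 ± 0.12 (95% interval -0.20 to 0.40; edgeR adjusted p = 0.74). Ccl2 had 0.747 and 0.737 counts per count of Ccl7 in controls and 0.875 and 0.946 in cKO. Without control replicate 2, Ccl7 was at -0.082 and Ccl2 at 0.20.

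Ccl20 (chromosome 1, 83116766 to 83119167, plus strand), the ligand of Ccr6, was rare and had the tightest replicates. It had 120 and 132 counts in controls and 50 and 51 in cKO, or 1.83 and 1.75 CPM against 0.645 and 0.628 CPM. The nearest libraries of the groups were 2.72-fold apart, while replicates differed by at most 1.05-fold. In the fit Ccl20 had a log2 fold change of -1.49 ± 0.38 (SE; 95% interval -2.41 to -0.58), with an edgeR adjusted p of 0.12 and a DESeq2 adjusted p of 0.0253. Leaving out single libraries gave -1.53 to -1.46, and edgeR called it in none of these fits.

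Ccl5 and Il6 showed no separation of the groups. Ccl5 (chromosome 11, 83525778 to 83530518, minus strand) was at 1.54 and 1.02 CPM in the controls against 1.59 and 1.01 CPM in cKO, and its log2 fold change of 0.02 ± 0.43 has a 95% interval from -1.03 to 1.07 that includes a doubling. Il6 (chromosome 5, 30013114 to 30019981, plus strand), which acts through Il6st on many tissues, was at 10.8 and 7.25 CPM in the controls against 8.41 and 8.23 CPM in cKO. Both cKO values of Il6 lay between the controls. The log2 fold change of Il6 was -0.12 ± 0.21 (SE; 95% interval -0.63 to 0.39; edgeR adjusted p = 0.83). Its sign depends on the controls, at 0.20 without control replicate 1 and -0.38 without control replicate 2.

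**Figure D3:**
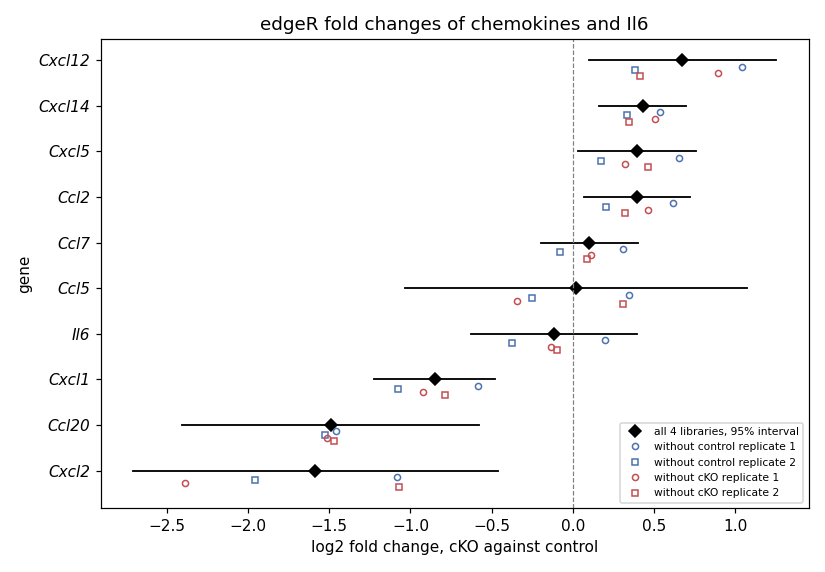
Log2 fold changes of cKO against control (horizontal axis), with diamonds and 95% intervals from all 4 libraries and open symbols from fits that leave out 1 library. Ccl5, Ccl7 and Il6 have open symbols on both sides of 0, and the other 7 genes stay on 1 side.

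The 2 controls differed in the level of the whole set. All 10 genes were higher in control replicate 1, the female library, than in control replicate 2, from 1.05-fold for Ccl20 to 1.83-fold for Cxcl2. A difference of at least 1.2-fold, a limit set after the values were seen, was reached by 8 of the 10, the exceptions being Cxcl14 and Ccl20. Of the 12933 tested genes with a mean of at least 1 CPM, 49.0% were higher in control replicate 1 and 9.53% at least 1.2-fold. The cKO libraries showed no such order, with 4 of 10 genes higher in cKO replicate 2. The part of sex or of any other feature of control replicate 1 in these levels was not tested. For Cxcl5, Cxcl12 and Ccl2 the distance from cKO was therefore smaller against control replicate 1, and for Cxcl1 and Cxcl2 it was larger. For Ccl7 both cKO libraries lay below control replicate 1 and above control replicate 2.

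Per kilobase of exon, using GENCODE M21 gene models, the 10 genes spanned a wide range. Exon length here pools all annotated transcripts of a gene, so the order depends on the annotation. For Cxcl1 (1875 bases) and Cxcl2 (2068 bases) it is 1 block that spans the whole gene. Cxcl12 was divided by 8176 bases from 4 transcripts, and before that division its 386 to 927 CPM exceeded Ccl7 in every library. Cxcl5 was the highest of all chemokines listed, at 387 to 639 CPM per kilobase over the 4 libraries, followed by Ccl7 at 190 to 249. Ccl2 (98.5 to 158), Cxcl12 (47.2 to 113) and Cxcl1 (37.5 to 82.7) came next, and the ranges of neighbours among these 3 overlapped. Cxcl14 was at 9.97 to 15.3, Cxcl2 at 1.42 to 9.63 and Il6 at 2.99 to 4.45, the latter 2 overlapping. Ccl5 was at 1.05 to 1.65 and Ccl20 at 0.442 to 1.29 CPM per kilobase. In reads, the 10 genes took 0.213% and 0.148% of each control library and 0.236% and 0.257% of each cKO library, and Cxcl5 and Cxcl12 gave 72.8% to 80.7% of these reads. Totals of the set thus describe those 2 genes more than Il6 or Ccl20.

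**Figure D4:**
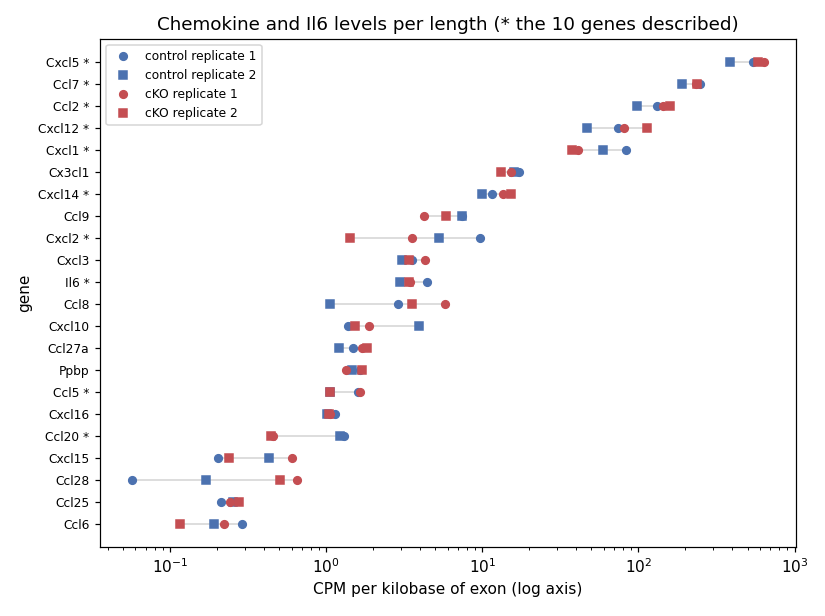
CPM per kilobase of exon (log axis) for chemokine genes and Il6 with counts in all 4 libraries, ordered by mean, with asterisks on the 10 genes described. Cxcl5 is highest at 387 to 639, and Ccl20 is the lowest of the 10 at 0.442 to 1.29.

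Of 29 other chemokine genes, 13 were tested and none was called by edgeR. An unadjusted edgeR p under 0.05 was reached by 3 of the 13, against 17.2% of all genes. DESeq2 called 1 higher (Ccl28) and 1 lower (Ccl9), against 3.29% and 4.11% of all genes. The median log2 fold change of the 13 was -0.03. Ccl28, a mucosal chemokine, was at 0.275 and 0.822 CPM in the controls against 3.13 and 2.44 CPM in cKO (log2 fold change 2.33 ± 0.55, SE; edgeR adjusted p = 0.11). Ccl9, a CC chemokine of mice that acts on myeloid cells, was at 22.6 and 22.7 CPM in the controls against 12.9 and 17.9 CPM in cKO. Cx3cl1, a membrane-bound chemokine, was at -0.22 ± 0.09 (log2 fold change ± SE; edgeR adjusted p = 0.26) and Ccl8, a relative of Ccl2 and Ccl7, at 1.25 ± 0.54 (edgeR adjusted p = 0.31). Another 10 genes were at 0 in all libraries, among them Ccl3 and Ccl4, which macrophages make on activation.

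The leukocyte receptors of the set were nearly absent. Of 23 chemokine receptor genes 8 were at 0 in all libraries, including Ccr2, and Cxcr2 had 4 counts in 1 library. Cxcr4, the receptor of Cxcl12, had 14 to 35 counts per library. Ackr3, the atypical receptor that binds and removes Cxcl12, was well expressed, at 91.2 and 79.0 CPM in the controls against 112 and 122 CPM in cKO. Both cKO libraries were above both controls, as for Cxcl12 itself. The log2 fold change of Ackr3 was 0.46 ± 0.09 (SE; 95% interval 0.25 to 0.67), with an edgeR adjusted p of 0.0678 and a DESeq2 adjusted p of 0.00026. None of the 8 tested receptor genes was called by edgeR, and 1 had an unadjusted p under 0.05, against 17.2% of all genes. The median log2 fold change of the 8 was 0.15.

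Of 17 genes of the IL-6 family, its receptors and its signal transduction, 16 were tested and edgeR called none. An unadjusted edgeR p under 0.05 was reached by 6, against 17.2% of all genes. DESeq2 called 2 higher, among them Il6st, and 1 lower (Jak2), against 3.29% and 4.11% of all genes. Il6st, the shared signalling receptor, was at 861 and 854 CPM in the controls against 963 and 991 CPM in cKO (edgeR adjusted p = 0.15). Jak2, which encodes a kinase that binds this receptor, was at 67.1 and 67.5 CPM in the controls against 57.1 and 50.2 CPM in cKO. For Lif, a cytokine that signals through Il6st, the log2 fold change was -0.47 ± 0.15 (edgeR adjusted p = 0.19). Il6ra, the receptor chain specific to IL-6, was at 10.1 to 12.3 CPM in all 4 libraries. The median of the list was 0.08.

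Among 25 tested genes of 27 that induce these factors or regulate their transcripts, edgeR called 1 higher and 0 lower. Over all genes it called 0.393% higher and 0.908% lower. At an unadjusted edgeR p under 0.05 there were 3 higher and 4 lower, against 17.2% of all genes in either direction. DESeq2 called 2 higher and 2 lower, against 3.29% and 4.11% of all genes. Zfp36l2, a protein that binds AU-rich elements and speeds mRNA decay, rose from 141 and 148 CPM in controls to 195 and 189 CPM in cKO (log2 fold change 0.41 ± 0.06, SE; edgeR adjusted p = 0.0373). It did not pass when either control library was left out, and 3 genes of the list were called higher without cKO replicate 1. Cebpd and Cebpb, transcription factors of the acute-phase response, were at -0.33 ± 0.06 (log2 fold change ± SE; edgeR adjusted p = 0.0571, DESeq2 adjusted p = 0.00056) and -0.35 ± 0.08 (edgeR adjusted p = 0.11, DESeq2 adjusted p = 0.0092). For both, the cKO libraries were below both controls. Il1rn, the interleukin-1 receptor antagonist, was at 260.0 and 258 CPM in the controls against 334 and 573 CPM in cKO (edgeR adjusted p = 0.15). Of the cytokines in the list, Il1b had at most 10 counts in a library, Tnf at most 33, Il1a at most 34, and Il17a was at 0. Il33 had more, with 56 and 167 counts in controls against 185 and 265 in cKO (edgeR adjusted p = 0.42). The median log2 fold change of the list was -0.02.

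**Figure D5:**
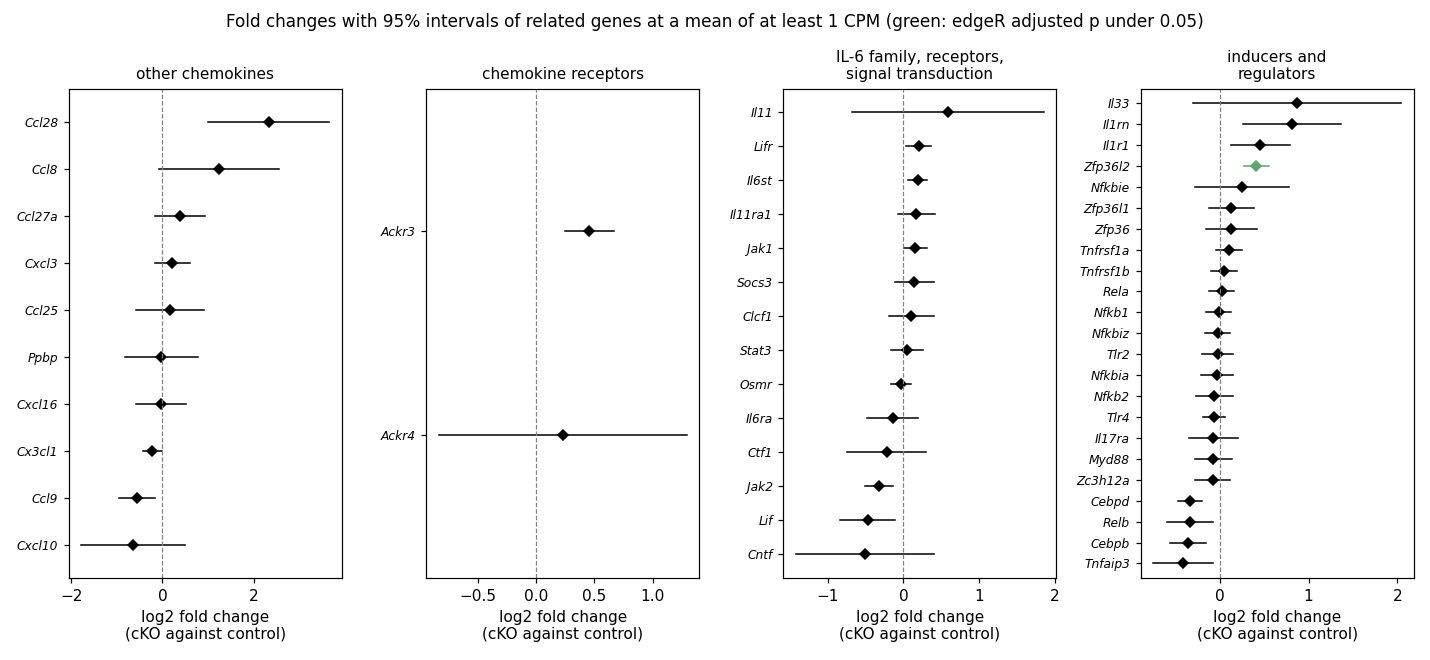
Log2 fold changes of cKO against control with 95% intervals (horizontal axes) for related genes with a mean of at least 1 CPM (1 gene not shown), in 4 panels by list, with the gene called by edgeR in green. Zfp36l2 at 0.41 is the only green point.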

How the data were processed

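RNA was measured by poly(A) RNA-seq in 4 libraries, grouped by their labels. The deposited table holds raw counts, as whole numbers per gene symbol without scaling to library size. Build mm10 and the tools HISAT2 2.2.1, StringTie 2.1.7, FastQC 0.11.9 and Trim Galore 0.6.7 are listed in the submitters' processing notes. For the counting step, the tool, strand setting and annotation were not given in the sources used here, so reads of overlapping or near-identical genes may be split in unknown ways. Replicates differed beyond sampling noise in both groups.

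Genes were filtered by filterByExpr (minimum count 10) in edgeR 4.0.16 (R 4.3.3), scaled by TMM and tested by glmQLFit and glmQLFTest with no covariate, with Benjamini-Hochberg adjustment over 15522 genes. The procedure was tested on simulated data. Standard errors were taken as the size of the log2 fold change divided by the root of F. CPM use TMM-scaled library sizes. DESeq2 1.42.0, library sizes alone, no filter, counts divided by 4, single libraries left out and replicate blocks were alternatives. Coordinates are from GENCODE M21.

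The 10 genes and the lists were chosen with earlier results of these data known. Named were Trabd2b, all 10 genes, and up to 4 genes per list by p-value at a mean of at least 1 CPM, with any tested chemokine or IL-6 family gene allowed. Single markers, Xist, Ddx3y, Ccl3, Ccl4, Ccr2, Cxcr2, Cxcr4, Il1a, Il1b, Il33, Tnf and Il17a are named outside this rule, after their values were seen. Some genes of the lists are counted but not reported here by name. The marker lists of 7 neutrophil, 6 endothelial, 8 skeletal muscle and 6 osteoclast genes summed to 3.19 to 5.24, 2.81 to 4.23, 4.57 to 61.7 and 381 to 479 CPM per library. In these lists 6, 5, 2 and 4 genes had a mean under 1 CPM. Camp alone was at 2.88 to 5.00 CPM, Vwf at 2.37 to 3.28 and the osteoclast marker Ctsk at 374 to 470. The muscle sum was 4.57 and 30.6 CPM in controls against 61.7 and 12.6 CPM in cKO.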

Additional observations from a re-analysis of the deposited data

How the results depend on the processing

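Of the 10 genes, 7 kept the sign of their fold change under every alternative run, while leaving out single libraries gave Ccl5 -0.35 to 0.34 (with -0.25 without control replicate 2), Ccl7 -0.082 to 0.31 and Il6 -0.38 to 0.20 (log2). DESeq2 called 2 of the 10 higher and 2 lower, and counts divided by 4 gave 1 lower (Cxcl1, edgeR adjusted p = 0.0426). Leaving out single libraries gave 0 to 2 lower and 0 higher. Over all genes, edgeR called 61 higher and 141 lower, against 116 higher with library sizes alone, 511 and 638 by DESeq2, 128 and 243 with counts divided by 4, and 1 to 312 higher and 4 to 470 lower without single libraries. In the related lists DESeq2 called 1 and 1 other chemokines, 1 receptor, 2 and 1 IL-6 family genes and 2 and 2 regulators higher and lower, and counts divided by 4 gave 1 receptor higher and 1 regulator lower. Without single libraries there were 0 to 1 other chemokines lower, 0 to 1 receptors higher, 0 to 1 IL-6 family genes lower, and 0 to 3 regulators higher and 0 to 2 lower. The cause was not tested.

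Replicate numbers are shared between the groups, but nothing in the labels says that they mark a shared animal, litter or day, and the deviations of equal numbers correlated at -0.16 across genes. With the replicate block edgeR called 3 genes higher and 20 lower, none of the 10 genes and 0 regulators higher. With the crossed pairing as replicate block, chosen after seeing the data, it called 223 higher and 341 lower, with 2 of the 10 genes higher and 1 lower, 1 other chemokine and 1 receptor higher, and 1 regulator lower.

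Values from 1 to 20 were multiples of 4 in 30.0% to 32.0% of cases, more than an even spread over these values would give. The labels do not give the reason. With 2 libraries per group the intervals of rare genes such as Ccl5 are wide.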
